A study of Mus musculus with 6 samples.

Results

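The genes described here are 10 genes of matricellular and related secreted matrix proteins, Postn, Tnc, Thbs1, Thbs2, Thbs4, Sparc, Spp1, Fn1, Comp and Cthrc1. They were chosen by symbol from the 17556 genes of a bulk RNAseq table, and all 10 passed the filter on low counts that left 13817 genes to be tested. The table covers left ventricles of 6 mice aged 6 to 10 weeks, collected 4 days after the left anterior descending artery was permanently tied. All mice were siblings with floxed Yap (both alleles) and floxed Wwtr1 (a single allele), and all ate a diet with tamoxifen citrate from surgery on. The 3 Cre-positive mice also carried a copy of MerCreMer, a tamoxifen inducible Cre, under the endogenous periostin promoter (Postn MCM), and the 3 Cre-negative mice had wildtype periostin. The design asks what changes in the infarcted ventricle when Cre in periostin expressing myofibroblasts removes Yap and a copy of Wwtr1. Since Postn is also the locus of the Cre driver, Postn was compared with the other 9 genes within each ventricle. The labels do not say whether the MerCreMer copy still yields Postn mRNA. The presence of MerCreMer at Postn and the removal of the floxed alleles came in the same mice and cannot be told apart.

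Matricellular proteins are secreted into the extracellular matrix, where they act less as scaffold than as regulators of how cells attach to and remodel it. Most are low in the healthy adult heart and are made after infarction, largely by activated fibroblasts and, for osteopontin, by macrophages. Periostin, the product of Postn, binds collagen and integrins and is the usual marker of the cardiac myofibroblast.

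Part of the promoter is shown for Postn, whose sequence drives Cre, and for Thbs4. Of the genes searched, Thbs4 alone held the letters of TEAD factors, through which Yap and Wwtr1 act on DNA. RefSeq promoters on GRCm38.p6, each 250 bases before and 50 bases after a start site, were found for 6 of the 10 genes in 9 entries, namely for Postn, Tnc and Spp1 (each with a pair of start sites), Sparc, Thbs4 and Thbs2. They were searched on both strands for the TEAD letters GGAATG, which 14.7% of 32851 promoters of this length hold. The same was done for the AP-1 letters TGANTCA, held by 7.81% of them, and for the TATA letters TATAAA, held by 13.6%. The TEAD letters were found only in the Thbs4 entry, in 2 overlapping matches on the strand opposite to the gene, which begin at positions −197 and −192 from the start. That is 1 of 6 genes, where 16.6% of all genes with a promoter held them. The TATA letters were found in 5 entries of 4 genes, among them Postn, and the AP-1 letters in none. Of the pair of Postn entries, that with its start at 54361107 held the TATA letters and that with its start at 54359267 did not. Below, capitals mark the TATA letters of Postn (chr3:54360857-54361106, plus strand, the bases up to the start at 54361107) and the TEAD letters of Thbs4 (chr13:92794994-92795068, minus strand, bases −250 to −176 from the start at 92794818), each read 5′ to 3′.
Postn: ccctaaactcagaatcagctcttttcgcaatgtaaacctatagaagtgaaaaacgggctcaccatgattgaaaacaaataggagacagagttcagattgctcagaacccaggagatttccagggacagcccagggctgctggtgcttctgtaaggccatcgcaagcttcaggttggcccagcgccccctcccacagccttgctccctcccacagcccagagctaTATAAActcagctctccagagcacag
Thbs4: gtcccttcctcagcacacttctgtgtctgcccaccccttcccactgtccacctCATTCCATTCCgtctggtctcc
A match of letters is a description of the reference sequence and no evidence of binding.

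The libraries held 13177888 to 14827579 estimated counts. Across the 13817 genes, edgeR's quasi-likelihood test with Benjamini-Hochberg adjustment called 1 gene (0.00724%), Gbp2b, which is named after its values were seen (adjusted p = 0.00991). No gene, Gbp2b included, was called with a replicate block, with fibroblast marker level as covariate, or without Cre-negative replicate 3, Cre-positive replicate 1 or Cre-positive replicate 3. At an unadjusted p under 0.05, 2.85% of genes were higher and 2.98% lower in Cre-positive ventricles. The targeted genes did not differ detectably in whole ventricles, with a log2 fold change of 0.03 (SE 0.09, edgeR adjusted p = 0.935) for Yap1 and 0.05 (SE 0.08, adjusted p = 0.876) for Wwtr1. Cre-negative replicate 1 stood apart from the other ventricles, with the lowest summed fibroblast and myofibroblast markers (4254 and 567.6 TPM, the transcripts of a gene as a share of all transcripts, scaled to length) and the highest neutrophil and cardiomyocyte markers (412.9 and 57700 TPM). Cre-positive replicate 1 had the highest summed skeletal muscle (122.5 TPM, against 12.48 to 17.16 TPM elsewhere), atrial (2196 TPM) and epicardial markers (151.0 TPM), and of the 10 genes Tnc, Thbs1, Sparc and Comp were highest in it. Y-linked transcripts were near 0 in replicate 2 of each genotype.

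By level per length (TPM), Sparc, which binds collagen and takes part in its deposition, was the highest of the 10 genes in every ventricle, and it ranked between 29 and 68 among all genes. Spp1, the gene of osteopontin, a phosphoprotein that binds integrins and CD44, was next in every ventricle. In Cre-negative ventricles the order went on with Postn, Fn1, Cthrc1, Tnc, Thbs1, Thbs4, Thbs2 and Comp. In Cre-positive ventricles it was the same except that Fn1 stood above Postn. Each gene was above the next in 3 of 3 ventricles of its genotype, except that Tnc was above Thbs1 in 2 of 3 Cre-negative ventricles. Several neighbours differed by less than the spread between mice, such as Thbs4 with 38.5 TPM ± 14.9 (SD, n = 3) and Thbs2 with 33.5 TPM ± 13.4 (SD, n = 3) in Cre-negative ventricles. Together the 10 genes made up 0.324%, 0.647% and 0.649% of all TPM in Cre-negative replicates 1, 2 and 3, and 0.614%, 0.690% and 0.614% in the Cre-positive ventricles in the same order, which is the order used for every set of values here.

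Postn stood at 451.62, 1014.92 and 1112.01 TPM in Cre-negative ventricles and at 525.85, 636.13 and 586.30 TPM in Cre-positive ventricles. Cre-negative replicate 1 was the lowest of all 6, and the other 2 Cre-negative ventricles were the highest, so that the genotypes overlapped (exact two-sided permutation p = 0.4, where 3 against 3 allow none under 0.1). In counts normalized by library, the values were 12157, 24639 and 26862 against 12682, 14240 and 13486. The log2 fold change was −0.66 (SE 0.27, 95% interval −1.29 to −0.02), a fold of 0.635, with an unadjusted p of 0.0438 and an adjusted p of 0.714 from edgeR's quasi-likelihood test. Without Cre-negative replicate 1, the genotypes no longer overlapped, the log2 fold change was −0.94 (SE 0.08), and the adjusted p from edgeR was 0.0182. Without any of the other 5 ventricles, the log2 fold change lay between −0.70 and −0.45 and even the unadjusted p, from 0.0814 to 0.148, missed the threshold in edgeR. It also did so with a Y-linked covariate (0.051) and in limma on TPM (0.19). The unadjusted p stayed under the threshold in edgeR with other scalings and filters (0.034 to 0.0494). It did so too with a replicate block (0.0311) or fibroblast marker level as covariate (0.0373) in edgeR, and in DESeq2 (0.0117). None of these settings passed after adjustment, so the difference of Postn alone was not settled by these ventricles. Postn took 13.9%, 15.7% and 17.1% of the summed TPM of the 10 genes in Cre-negative ventricles, and 8.56%, 9.22% and 9.54% in Cre-positive ventricles. These shares did not overlap, and Postn ranked 3 of the 10 in each Cre-negative ventricle and 4 in each Cre-positive ventricle.

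**Figure D1:**
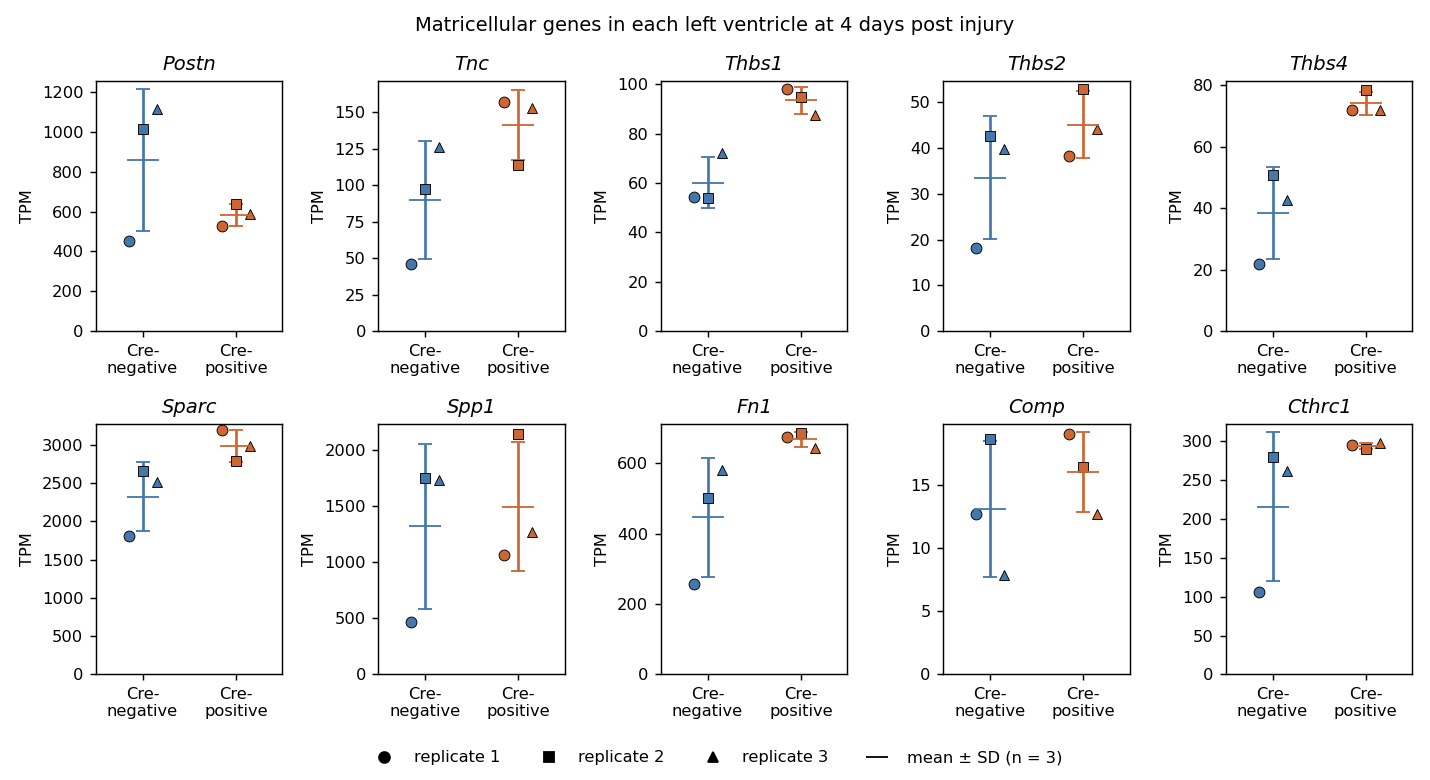
Levels of the 10 genes in TPM (vertical axis, starting at 0) for each Cre-negative and Cre-positive ventricle, with the symbol giving the replicate number and the bars the mean ± SD (n = 3). Cre-negative replicate 1 (circles) is the lowest ventricle for 8 of the genes, while Postn is the gene whose 2 highest ventricles are both Cre-negative.

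The thrombospondins split by structure into the trimeric Thbs1 and Thbs2, which bind the receptors CD36 and CD47, and the pentameric Thbs4 and Comp. Thbs1, which can activate latent TGF-beta, was measured at 54.37, 53.93 and 72.26 TPM in Cre-negative ventricles and at 98.04, 94.86 and 87.55 TPM in Cre-positive ventricles. All 3 Cre-positive ventricles were above all Cre-negative ones (exact two-sided permutation p = 0.1, the smallest that 3 against 3 allow). Its log2 fold change was 0.52 (SE 0.13, 95% interval 0.22 to 0.82, unadjusted p = 0.00397, adjusted p = 0.714, edgeR). Thbs4, which is made in tendon, vessel wall and stressed heart, was at 21.90, 50.81 and 42.73 TPM against 71.87, 78.49 and 71.86 TPM, again without overlap. Its log2 fold change was 0.85 (SE 0.23, 95% interval 0.30 to 1.39, unadjusted p = 0.00751, adjusted p = 0.714, edgeR). Without Cre-negative replicate 1, the log2 fold changes of Thbs1 and Thbs4 were 0.50 and 0.59. Thbs2, an inhibitor of angiogenesis, was at 18.08, 42.57 and 39.82 TPM against 38.27, 52.83 and 44.09 TPM, and the genotypes overlapped. Its log2 fold change was 0.33 (SE 0.26, adjusted p = 0.731, edgeR), 0.06 without Cre-negative replicate 1 and 0.52 without Cre-negative replicate 2. Comp, best known as a cartilage and tendon matrix protein, was the lowest of the 10 genes, at 12.70, 18.63 and 7.89 TPM against 19.03, 16.43 and 12.70 TPM. The ranges of Comp overlapped in part, and the log2 fold change of 0.18 (SE 0.30, adjusted p = 0.865, edgeR) was −0.10 without Cre-negative replicate 3 and 0.49 without Cre-negative replicate 2.

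Tnc and Fn1 encode large glycoproteins of the provisional wound matrix. Tenascin C loosens cell adhesion and is known for its brief appearance at the border of an infarct, and fibronectin forms fibrils on which collagen is laid down. Tnc was at 46.10, 97.14 and 126.01 TPM in Cre-negative ventricles and at 157.18, 113.61 and 152.93 TPM in Cre-positive ventricles. The ranges of Tnc overlapped, since Cre-negative replicate 3 was above Cre-positive replicate 2, and the log2 fold change was 0.59 (SE 0.31, adjusted p = 0.714, edgeR), and 0.29 without Cre-negative replicate 1 and 0.89 without Cre-negative replicate 3. Fn1 was at 257.32, 499.48 and 579.73 TPM against 673.21, 684.83 and 642.80 TPM, and all Cre-positive ventricles were above all Cre-negative ones. Its log2 fold change was 0.49 (SE 0.24, 95% interval −0.08 to 1.06, unadjusted p = 0.0825, adjusted p = 0.714, edgeR), and 0.24 (SE 0.09) without Cre-negative replicate 1.

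Sparc, Cthrc1 and Spp1 overlapped between genotypes in normalized counts. Sparc was at 1802.41, 2654.38 and 2509.26 TPM against 3196.66, 2783.16 and 2979.64 TPM, with a log2 fold change of 0.26 (SE 0.16, adjusted p = 0.714, edgeR). Cthrc1, a secreted protein of activated fibroblasts, was at 106.01, 280.28 and 261.66 TPM against 294.62, 290.01 and 297.80 TPM, with a log2 fold change of 0.35 (SE 0.28, adjusted p = 0.733, edgeR). Both genes were separated between genotypes in TPM, a scale on which the median of all genes was higher in Cre-positive ventricles by 0.11 (log2). Without Cre-negative replicate 1 the log2 fold changes of Sparc and Cthrc1 were 0.14 and 0.05, and without Cre-negative replicate 2 they were 0.341 and 0.565. Spp1 was at 470.28, 1754.52 and 1736.91 TPM against 1065.24, 2147.62 and 1267.42 TPM. The highest Spp1 level was in Cre-positive replicate 2 and the lowest in Cre-negative replicate 1, and the log2 fold change of 0.08 (SE 0.44, adjusted p = 0.965, edgeR) turned to −0.31 without the latter and to −0.24 without Cre-positive replicate 2.

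None of the 10 genes passed the adjusted threshold, against 0.00724% of all genes tested. At an unadjusted p under 0.05 in edgeR, 2 of the 10 (Thbs1 and Thbs4) were higher, against 2.85% of all genes, and 1 (Postn) was lower, against 2.98%. DESeq2 gave 4 of the 10 under that threshold, against 840 of 17525 genes, and 0 after adjustment. In normalized counts, 3 of the 10 (Thbs1, Thbs4 and Fn1) were higher in Cre-positive ventricles without overlap, where 7.55% of all genes were, and 0 were lower without overlap, where 6.85% were. The log2 fold change was above 0 for 9 of the 10, all but Postn, and for 51.2% of all genes. Its median was 0.34 over the 10 genes and 0.01 over all genes. Without Cre-negative replicate 1, the lowest ventricle for 8 of the 10 genes, the median over the 10 was 0.18 and 8 were above 0. The 10 genes were measured in the same ventricles, so their counts are not 10 separate observations.

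**Figure D2:**
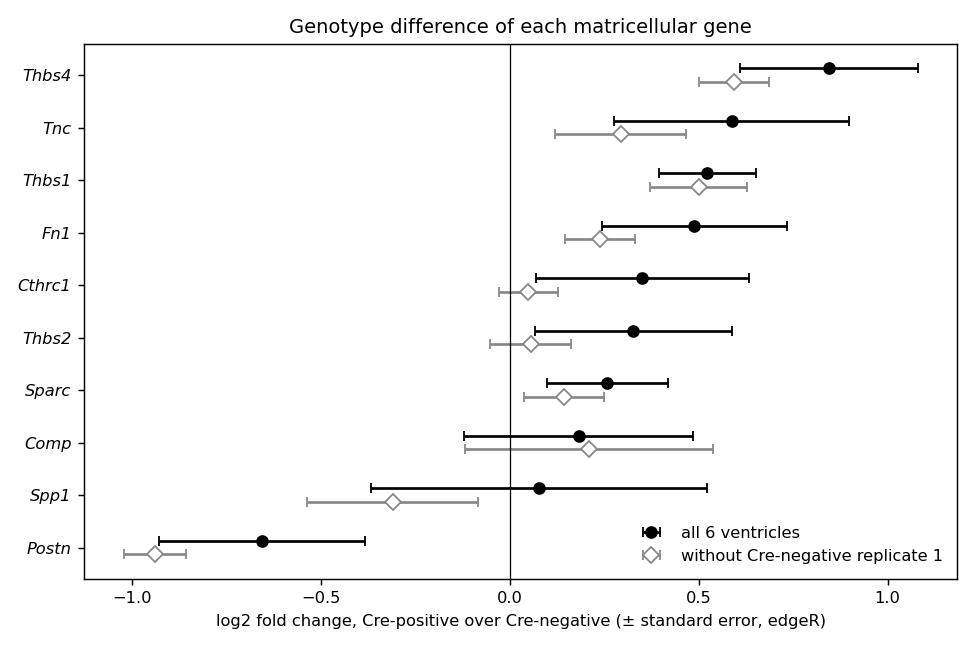
Log2 fold change of each gene, Cre-positive over Cre-negative, from edgeR, with bars of ± 1 standard error, for all 6 ventricles (filled circles) and without Cre-negative replicate 1 (open diamonds). Postn is at −0.66 and −0.94, whereas the other genes lie between 0.08 and 0.85 in all 6 ventricles and between −0.31 and 0.59 without that ventricle.

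The comparison of Postn with each other gene inside a ventricle does not depend on how libraries are scaled, and Cre-negative replicate 1 stands apart less in most of these ratios. Postn was 1.76, 2.03 and 1.92 times Fn1 in Cre-negative ventricles, and 0.781, 0.929 and 0.912 times Fn1 in Cre-positive ventricles. In TPM, a level per length, Postn thus exceeded Fn1 in every Cre-negative ventricle and was below Fn1 in every Cre-positive one. In normalized counts, which are not per length, Postn was below Fn1 in every ventricle (0.678, 0.785 and 0.739 against 0.302, 0.358 and 0.352 times Fn1). The ratio of Postn to Cthrc1 was 4.26, 3.62 and 4.25 against 1.78, 2.19 and 1.97. To Tnc it was 9.80, 10.4 and 8.82 against 3.35, 5.60 and 3.83. Each of these ratios was higher in all 3 Cre-negative ventricles than in any Cre-positive ventricle, and the fold between genotypes was 0.459 for Fn1, 0.490 for Cthrc1 and 0.430 for Tnc.

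Against the thrombospondins the ratios were lower in Cre-positive ventricles too, except that those to Comp overlapped. Postn to Thbs4 was 20.6, 20.0 and 26.0 in Cre-negative ventricles and 7.32, 8.10 and 8.16 in Cre-positive ventricles, the largest difference of the 9 pairs with a fold of 0.356. Postn to Thbs2 was 25.0, 23.8 and 27.9 against 13.7, 12 and 13.3, a fold of 0.510. Postn to Thbs1 was 8.31, 18.8 and 15.4 against 5.36, 6.71 and 6.70, a fold of 0.464. The Thbs1 ratio of Cre-negative replicate 1 was closer to the Cre-positive ventricles than to its own group, yet did not overlap them. For Comp the ratio was 35.6, 54.5 and 141 against 27.6, 38.7 and 46.2, with the lowest Cre-negative value inside the Cre-positive range (exact two-sided permutation p = 0.3). The fold for Comp was 0.566, and the 2 most abundant genes had folds near it, with 0.251, 0.382 and 0.443 against 0.164, 0.229 and 0.197 for Sparc (a fold of 0.559), and with 0.960, 0.578 and 0.640 against 0.494, 0.296 and 0.463 for Spp1 (a fold of 0.575).

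The ratio was thus lower in Cre-positive ventricles without overlap for 8 of 9 genes, each with an exact two-sided permutation p of 0.1, the smallest that 3 against 3 allow. None of these 9 p-values can pass an adjustment, and the 9 ratios share Postn, so they are not independent. Normalized counts gave 8 of 9 as well. The background for this count is the ratio of Postn to each of 12382 genes above 1 TPM in every ventricle, which was lower without overlap for 24.3% of them and had a median log2 difference of −0.58. The log2 difference was −1.49 for Thbs4, a value below which 0.162% of those genes lay, −1.22 for Tnc (0.816%) and −1.12 for Fn1 (1.53%). It was −0.84 for Sparc (9.95%), −0.82 for Comp (11.5%) and −0.80 for Spp1 (13.6%), nearer to the general shift. Relative to the geometric mean of the other 9 genes, Postn was at 5.18, 5.87 and 6.83 in Cre-negative ventricles and at 2.61, 3.0 and 3.02 in Cre-positive ventricles. On the log2 scale these are 2.57 ± 0.20 and 1.52 ± 0.12 (SD, n = 3), a difference of −1.04, which stayed between −1.14 and −0.94 when any ventricle was left out. Without Cre-negative replicate 1, the folds of the 9 ratios were 0.344 to 0.670.

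Pairs of genes without Postn served as the comparison. Of the 36 such pairs, 4 did not overlap between genotypes, and all 4 involved Thbs4, which was higher in Cre-positive ventricles relative to Sparc (log2 difference 0.65), Thbs2 (−0.52 for Thbs2 over Thbs4), Cthrc1 (0.46) and Fn1 (0.37). The largest absolute log2 difference of the 36 was 0.69, and the smallest of the 9 pairs with Postn was 0.80. Single ventricles move the pairs with Postn. The log2 difference of Postn to Comp was −0.26 without Cre-negative replicate 3. That of Postn to Spp1 was −0.57 without Cre-positive replicate 2 and −0.58 without Cre-negative replicate 1. The 36 pairs without Postn were not recomputed in this way, so how the gap between the sets depends on single ventricles was not tested.

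**Figure D3:**
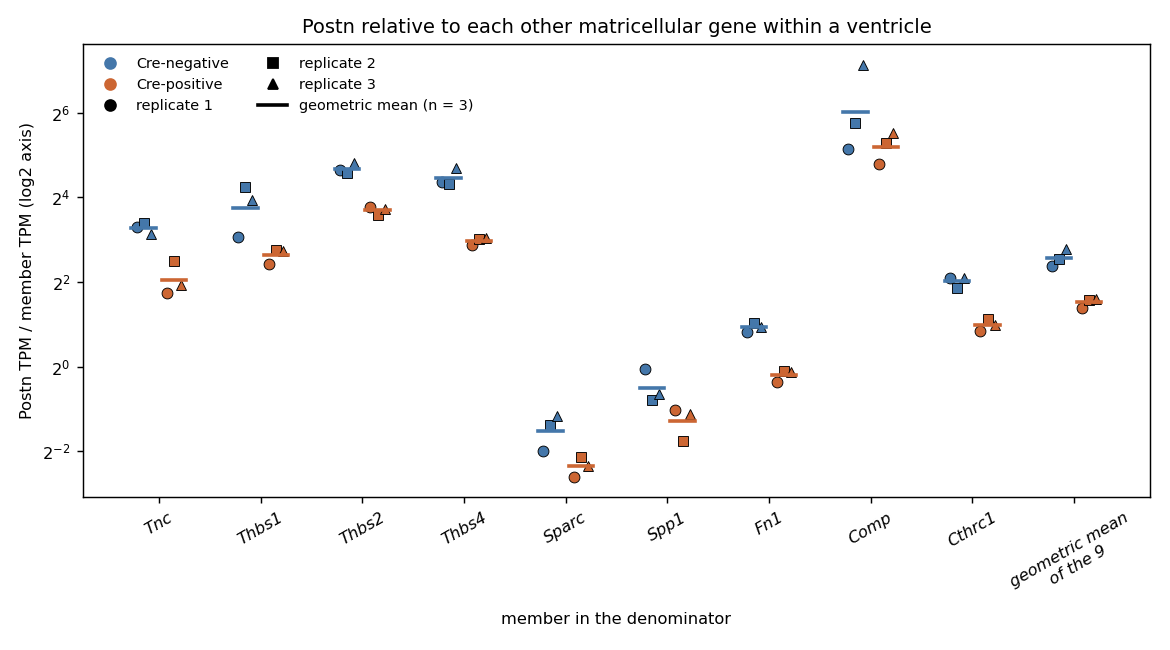
Ratio of Postn TPM to the TPM of each other gene, and to the geometric mean of the 9, in each ventricle (vertical log2 axis), with the symbol giving the replicate number and horizontal lines the geometric mean of 3 ventricles. Cre-positive ventricles lie below all Cre-negative ones for 8 of the 9 genes, and those of Comp overlap.

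The effective length implied by estimated count over TPM moves when the mix of a gene's isoforms moves, and it was compared across ventricles. For Postn, which is spliced into several isoforms, it varied by 0.648% over the 6 ventricles and differed by 0.00717% between genotypes (−0.197% to 0.125% when a ventricle was left out). For the other genes it varied by between 0.366% (Sparc) and 4.17% (Tnc), against a median of 1.23% over genes above 1 TPM. The difference between genotypes for Tnc, another gene of many isoforms, was 1.75% (exact two-sided permutation p = 0.2). Sparc and Spp1, 2 of the 10, had a lower implied length in all Cre-positive than in any Cre-negative ventricle (−0.196% and −0.332%), where 27% of 12383 genes above 1 TPM did. The part of transcript usage in the results was not tested.

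The spread between mice was uneven. The SD of log2 normalized counts of Postn was 0.63 among Cre-negative and 0.08 among Cre-positive ventricles, where the medians over all genes were 0.19 and 0.13. For Postn the Cre-negative spread rested largely on replicate 1, at 12157 normalized counts against 24639 and 26862 in replicates 2 and 3. Thbs4 (0.55 and 0.04), Fn1 (0.54 and 0.07) and Cthrc1 (0.69 and 0.07) had the same unevenness. Tnc (0.68 and 0.295), Thbs2 (0.596 and 0.179) and Comp (0.63 and 0.322) were also wider among Cre-negative ventricles. Spp1 had the widest spread in both genotypes (1.0 and 0.48). Thbs1 (0.21 and 0.12) and Sparc (0.21 and 0.16) were near the median of all genes among Cre-negative ventricles.

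Sums of markers of other cells differed between genotypes or ventricles as well. Summed cardiomyocyte markers were at 47780 to 57700 TPM in Cre-negative and 43130 to 46580 TPM in Cre-positive ventricles, without overlap, with a log2 fold change below 0 for all 8 and 4 of 8 lower without overlap singly (against 6.85% of all genes). Myofibroblast markers were at 567.6 to 1195 against 1208 to 1367 TPM, also without overlap but with a gap smaller than the general shift of TPM of 0.11 (log2), with 6 of 7 above 0 and 3 of 7 higher without overlap singly (against 7.55%). Smooth muscle markers were at 128.6 to 148.5 against 162.9 to 170.4 TPM, with 3 of 4 above 0 and 2 of 4 higher without overlap singly. Fibroblast markers (4254 to 6169 against 5897 to 6999 TPM, 5 of 8 above 0) and macrophage markers (2419 to 3942 against 3280 to 3758 TPM, 5 of 8 above 0) overlapped, as did the macrophage genes often found with Spp1 (2757 to 4331 against 3363 to 4146 TPM, 2 of 6 above 0). Neutrophil markers were at 48.38 to 412.9 against 66.55 to 156.3 TPM, with 1 of 5 above 0. Epicardial markers (29.06 to 106.8 against 74.55 to 151.0 TPM) and endothelial markers (406.6 to 510.9 against 508.1 to 578.3 TPM) overlapped in sum, with 5 of 5 above 0 in each and medians of 0.65 and 0.06 (log2). Platelet markers (223.9 to 332.3 against 231.9 to 254.6 TPM) overlapped too, with 0 of 5 above 0, and no list had a marker at 0 in all ventricles. The part of these markers in the results for the 10 genes was not tested. In whole ventricles, fewer cells of a type and less RNA per cell cannot be told apart.

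**Figure D4:**
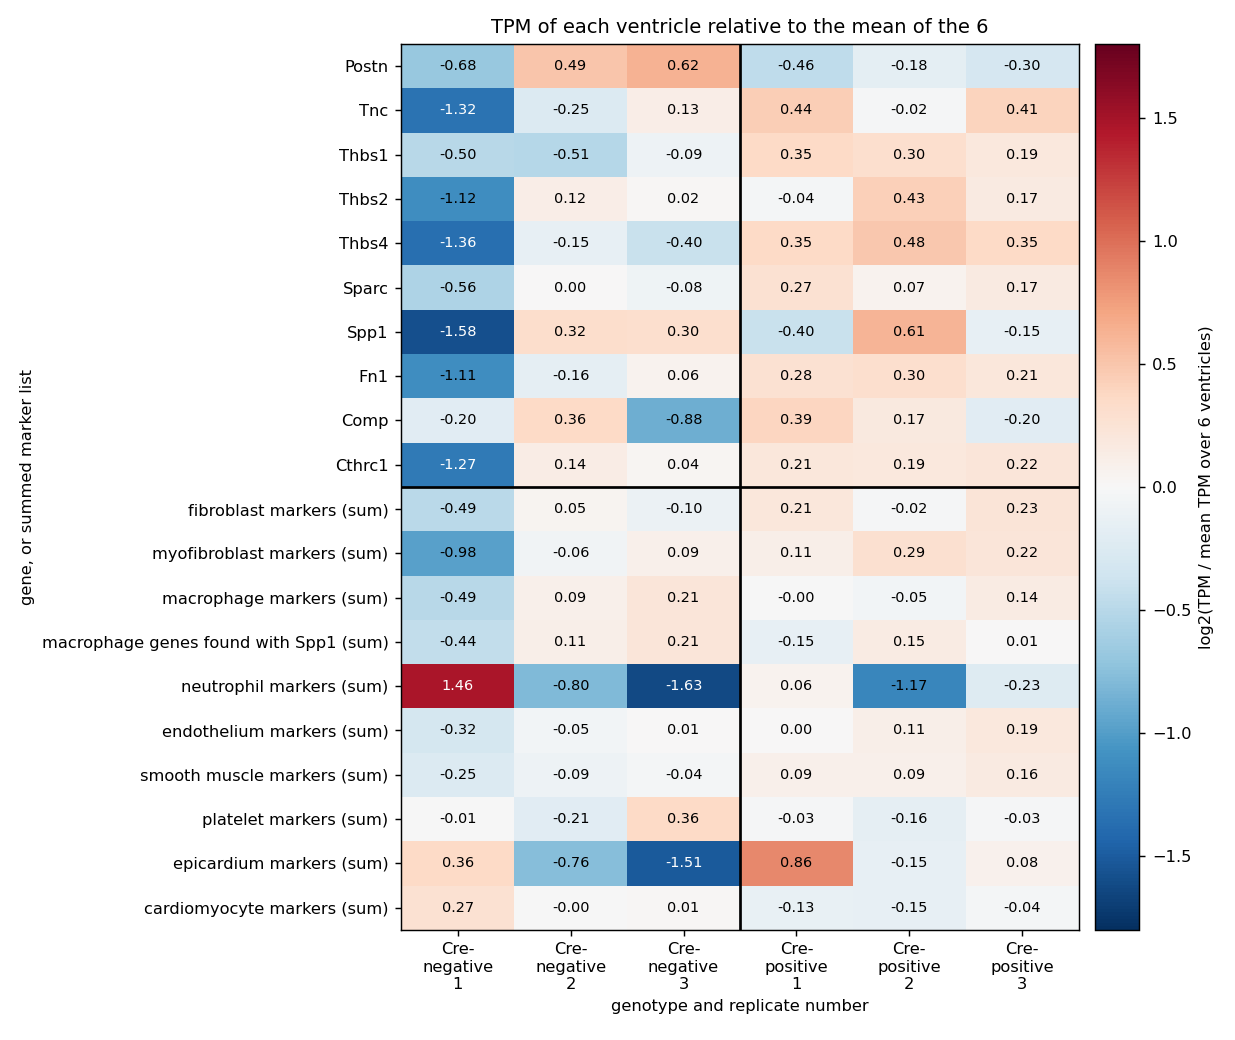
Colour and number give log2 of the TPM of each ventricle (columns) over the mean of all 6, for the 10 genes (upper rows) and for summed marker lists (lower rows). Cre-negative replicate 1 is low in the myofibroblast sum (−0.98) and in 9 of the 10 genes, from −1.58 for Spp1 to −0.50 for Thbs1, and Postn is positive only in Cre-negative replicates 2 (0.49) and 3 (0.62).

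Lists of related genes were set beside the 10. Of the other matricellular genes, 15 of 16 were in the table and 13 were tested, 0 passed the adjusted or the unadjusted threshold, 6 were above 0, and the median log2 fold change was −0.01. The largest were those of Spock2, a testican proteoglycan (−1.18, SE 0.54, unadjusted p = 0.0627), and Tnn, tenascin N (0.65, SE 0.55, unadjusted p = 0.275, edgeR). Tnn turned to −0.09 without Cre-positive replicate 1 and was at 1.14 without Cre-negative replicate 1. Spock2 stood out in Cre-negative replicate 1 with 17.64 TPM, while the other 5 ventricles had 3.65 to 5.18 TPM, and its log2 fold change was −0.19 without that ventricle. The nearest relative of Postn, Tgfbi, had 63.55, 155.7 and 156.2 TPM against 162.9, 194.7 and 163.5 TPM, with a log2 fold change of 0.38 (SE 0.27, adjusted p = 0.722, edgeR). Tgfbi was added to those named after its values were seen.

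Of the 20 receptors for these proteins, all were tested and 0 passed after adjustment. The log2 fold change was above 0 for 16 (against 51.2% of all genes), with a median of 0.22 (against 0.01). At an unadjusted p under 0.05, 5 were higher (against 2.85% of all genes) and 0 lower, and 7 were higher without overlap (against 7.55%). The 5 were Cd44, a receptor of osteopontin and hyaluronan (log2 fold change 0.38), Itgav (0.42) and Itgb3 (0.26), which together form an integrin that binds periostin, osteopontin and fibronectin, Itga5 (0.24), whose integrin assembles fibronectin, and Egfr (0.36). Each had an adjusted p of 0.714 in edgeR. In TPM, Cre-negative replicate 1 was the lowest ventricle for all of the 5 but Egfr. The largest values in the list were those of Itgb8 (1.07, SE 0.50) and Itgb6 (0.47, SE 0.22), integrin chains that activate TGF-beta. Itgb8 was below 1 TPM in every ventricle, and its log2 fold change was 0.70 without Cre-negative replicate 1, while that of Itgb6 was 0.29 without Cre-negative replicate 2 and 0.71 without Cre-negative replicate 3. Neither passed the unadjusted or the adjusted threshold (adjusted p = 0.714 for both, edgeR).

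Of the 20 matrix partners and processing enzymes, among them collagens, crosslinking enzymes and proteases, all were tested and 0 passed after adjustment. The log2 fold change was above 0 for 17 (against 51.2% of all genes), with a median of 0.26 (against 0.01). At an unadjusted p under 0.05, 1 was higher (against 2.85% of all genes) and 0 lower, and 6 were higher without overlap (against 7.55%). The 1 gene was Col12a1, a collagen on fibril surfaces, at 6.12, 15.84 and 16.83 TPM against 25.29, 25.47 and 20.48 TPM (log2 fold change 0.81, SE 0.29, unadjusted p = 0.0269, adjusted p = 0.714, edgeR). Col1a2, a chain of fibrillar collagen I, was next with 0.39 (SE 0.20). Without Cre-negative replicate 1 they had 0.50 and 0.21. The ratio of Postn to these genes repeated the pattern among the 10, being lower in Cre-positive ventricles for all 20 and without overlap for 14. Postn was 0.291, 0.375 and 0.457 times Col1a1 in Cre-negative and 0.161, 0.231 and 0.186 times in Cre-positive ventricles. For Dcn, Ccdc80, Adamts1, Mmp3, Mmp9 and Tgm2 the ratios overlapped, with Cre-negative replicate 1 below all Cre-positive ventricles. The count of 14 shares Postn with the count of 8 of 9 and stands against the same 24.3%.

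Of 26 genes of upstream signals, 25 were tested and 0 passed after adjustment. The log2 fold change was above 0 for 23 (against 51.2% of all genes), with a median of 0.12 (against 0.01). At an unadjusted p under 0.05, 1 was higher (against 2.85%) and 0 lower, and 5 were higher without overlap (against 7.55%). The 1 gene was Tgfb2, a TGF-beta ligand, which was higher without overlap at 12.89, 20.14 and 22.1 TPM against 29.29, 26.84 and 26.83 TPM (log2 fold change 0.48, SE 0.16, unadjusted p = 0.0189, adjusted p = 0.714, edgeR). Runx1, a transcription factor induced in the injured heart, had 0.35 (SE 0.26). Without Cre-negative replicate 1 the values were 0.31 for Tgfb2 and 0.07 for Runx1, and without Cre-negative replicate 3 they were 0.609 and 0.549. Tgfb1, the isoform best known to induce Postn, had 103.6, 160.5 and 163.8 TPM against 165.5, 163.0 and 166.8 TPM and a log2 fold change of 0.11 (SE 0.14), and was named after its values were seen.

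The genes whose normalized counts followed Postn most closely over the 6 ventricles, ranked by Pearson's r among 11999 genes and given as a description, were Vti1a (r = 0.997), Rnaseh2b (0.995), Mtmr14 (0.992), Psmd8 (0.991) and Scin (0.990). Vti1a, for example, had 347.9, 412.0 and 417.6 normalized counts against 353.3, 360.0 and 352.4. Postn falls into a high pair (Cre-negative replicates 2 and 3) and 4 low ventricles, so these values rest on the gap between them. Of the other 9 genes, Spp1 came closest with r = 0.627 (rank 946). Within the 4 low ventricles r was 0.807 to 0.927 for the 5 genes, 0.95 for Spp1 and 0.881 for Thbs2, so by that measure the 5 were no closer to Postn than Spp1.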

How the data were processed

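Left ventricles of 3 Cre-positive and 3 Cre-negative mice were grouped by the Cre label. The labels do not say whether samples of a group came from separate surgeries, and p-values measure the spread between these ventricles. The paper given with the series does not describe this experiment, so methods come from the labels alone. According to the submitters' processing notes, Bowtie2 2.2.5, RSEM 1.2.12 and GRCm38.p6 were used. The annotation is not given in the sources used here. The authors deposited estimated counts per gene without normalization (11.46% are not whole) and TPM scaled to transcript length and library total. The FPKM values and a table with log2 fold changes, p-values and q-values made by the authors with DESeq2 were not used. How the libraries treat strand is not given in the sources used here.

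Counts were rounded and fitted in R 4.3.3 with edgeR 4.0.16 (filterByExpr, minimum count 10, minimum total 15, TMM scaling, quasi-likelihood test, Benjamini-Hochberg adjustment over 13817 genes, threshold 0.05). The SE of a log2 fold change was derived as its absolute value over the square root of the F statistic of the quasi-likelihood test. The 95% intervals were built from this SE with a t quantile. Normalized counts are TMM-scaled at the mean library size of 14264187. Exact two-sided permutation tests of single values were run in Python 3.11.15 by listing every split of the ventricles, counted as scipy 1.17.1 does. Ratios used TPM. DESeq2 1.42.0, limma 3.58.1 on log2(TPM + 1) or log2(TPM + 0.1), other scalings and filters, a replicate block, a Y-linked covariate and leaving out each ventricle were alternatives. Libraries of 13177888 to 14827579 counts allow a gene with 0 counts up to 3 counts, 0.202 to 0.228 CPM (95% limit, counting error only). The fit was tested on simulated counts. Positions come from RefSeq on GRCm38.p6, where 17443 gene numbers matched. The 10 genes and all lists were chosen with earlier results of these data known. The genes named are the 10, Yap1, Wwtr1, the 2 tested genes of each list with the largest absolute log2 fold change, and the 5 with the highest r with Postn among genes with a mean of at least 50 counts, besides those marked as chosen later or counted in a list. Figures were drawn with matplotlib 3.10.9.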

Additional observations from a re-analysis of the deposited data

How the results depend on the processing

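A fold change counted as unchanged if it kept its direction and its side of the adjusted threshold. None of the genes recomputed here was under that threshold in the main fit. A ratio counted as unchanged if it moved by less than the SD between mice, and a count of genes if it stayed near its main value. Of 227 values recomputed under another scaling, filter, test or covariate, 224 were unchanged. The other 3 were the number of genes called by edgeR (1), which was 5 with DESeq2, 0 with a replicate block (1217 at an unadjusted p under 0.05) and 0 with fibroblast marker level as covariate (487 at an unadjusted p under 0.05), an alternative chosen after seeing the data. Leaving out a ventricle gave 0 to 2 genes, with 2 without Cre-negative replicate 1 and 0 without Cre-negative replicate 3, Cre-positive replicate 1 or Cre-positive replicate 3 (1346, 556 and 513 at an unadjusted p under 0.05), and 0 to 1 of the 10 genes, the 1 being Postn without Cre-negative replicate 1. The log2 fold change of Postn then ranged from −0.94 to −0.45, and its adjusted p over all alternatives from 0.0182 to 0.970. The ranges of log2 fold change that crossed 0 were −0.31 to 0.32 for Spp1, −0.10 to 0.49 for Comp, −0.0943 to 1.14 for Tnn and −0.0242 to 0.0615 for Yap1, and those of implied length were −0.197% to 0.125% for Postn and −0.129% to 0.298% for Fn1. The cause was not tested. Deviations of same-numbered ventricles had r = 0.354, 0.073 and −0.032, and those of ventricles with other numbers had r = −0.368 to 0.354. Of the same-numbered ventricles, only replicates 1 were thus at the upper end. The numbers were not taken as pairs, but these values do not settle whether they are. With the replicate block, the log2 fold change of Postn was −0.58. On TPM the median over all genes was 0.11 or 0.12 (log2) instead of 0.01, which bears on Sparc and Cthrc1. Itgb8 was under the filter of the limma fits on TPM and has no fold change there. With 3 mice a group, differences under the spread between mice were not detectable.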
